A study of Homo sapiens with 2 samples.

Results

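The genes described here belong to the PERK and CHOP branch of the endoplasmic reticulum stress response. The 10 members were EIF2AK3, ATF4, DDIT3, TRIB3, CHAC1, PPP1R15A, CEBPB, NUPR1, ATF5 and CEBPG, and every probe set that the platform annotation assigns to one of these symbols was taken. They had 17 probe sets of the 54675 on the array and were 10 of 19775 named genes. The set was chosen by the DDIT3 signals of these same arrays, around which genes of the branch were gathered by name, so that the values of DDIT3 and its place among the members are a description.

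RNA came from HT-29, an established human colorectal adenocarcinoma cell line, in 2 cultures. The sample titles are HT-29 WT for the monolayer and HT-29 sphere for the spheroids. Monolayer cells were kept on treated plates in DMEM/F-12 with 10% fetal bovine serum and an antibiotic-antimycotic. Spheroids were formed from these cells on low adhesion plates and harvested on day 5, in stem cell media with the same antibiotic-antimycotic, the supplement B27 and the epidermal and fibroblast growth factors. The paper uses such spheroids as cultures enriched in cancer stem cells (CSCs) and monolayer cells as their control, but growth form and medium changed together and cannot be told apart. Each culture was measured on 1 Affymetrix U133 Plus 2.0 array, so no difference below has a replicate check, an error or a p-value.

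PERK, encoded by EIF2AK3, is a kinase of the endoplasmic reticulum membrane that senses misfolded proteins and phosphorylates the initiation factor eIF2α. Protein synthesis is then lowered in general, while the transcription factor ATF4 is translated more efficiently and turns on genes for amino acid supply, redox balance and, through CHOP, encoded by DDIT3, for recovery of translation and cell death. In the intestinal epithelium, PERK and eIF2α signalling is known to act on the loss of stemness when stem cells begin to differentiate. The arrays measure mRNA and not eIF2α phosphorylation or ATF4 protein.

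The values are MAS5 signals, intensities on a linear scale that were set to the same trimmed mean on both arrays. The median over both arrays, 62.7, served as a floor to which any lower signal was raised before log2 was taken, and each gene was represented by its brightest probe set. Of the 19775 genes, 13183 were above the floor on 1 or both arrays and are called measured. Log2 differences are spheroid minus monolayer throughout. Across 5506 genes with several probe sets above the floor, the log2 differences of probe sets of one gene had an SD of 0.41, the only measure of spread available. The hybridisation spike-ins had a mean log2 difference of -0.25, and each of their 18 probe sets was lower in spheroids. The arrays held the epithelial genes EPCAM, CDH1, KRT8, KRT18 and KRT19 well above the floor. Of the intestinal genes, KRT20 was above it on both arrays, at 99.6 in monolayer and 218 in spheroids, and CDX1 and CDH17 on neither. CDX2, CEACAM5 and GPA33 were above it only in spheroids, at 80.0, 106 and 97.2, and VIL1 only in monolayer, at 100. These signals lie near the floor, and the other probe sets of CDX2, CEACAM5 and VIL1 were below it on both arrays. Of other cell types, 8 of 11 markers were below the floor on both arrays. Of the markers above it, the collagen gene COL1A1 had signals of 1370 and 1972 and the endothelial gene PECAM1 of 124 and 99.5, each by its brightest probe set. The next probe set of COL1A1 was at 313 and 302, and the other probe sets of PECAM1 were near or below the floor. COL1A2 was above the floor only in monolayer, at 64.9.

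DDIT3, the gene of the transcription factor CHOP, was the member with the highest difference. Its signal was 604 in monolayer and 2769 in spheroids, which is 4.59-fold higher in spheroids (log2 difference 2.20). As a description, this difference was at place 7 from the top among all measured genes, and at place 40 of all named genes with a pseudocount in place of the floor and 958 with neither. Of 3891 measured genes whose mean signal was within 2-fold of that of DDIT3, 0.129% had a difference as high, DDIT3 included. A single probe set measures DDIT3, so that the size has no second reading on the array. CHAC1, which degrades glutathione and is induced by ATF4, was the other member past 2-fold. Its signal was 97.6 in monolayer and 208 in spheroids, a 2.13-fold difference (log2 difference 1.09). Both signals were above 89.2, under which 95% of the probe sets of olfactory receptors lay, genes that are normally silent in epithelium. CHAC1 also has only 1 probe set, and of 3070 genes of similar signal 4.01% had a difference as high.

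**Figure D1:**
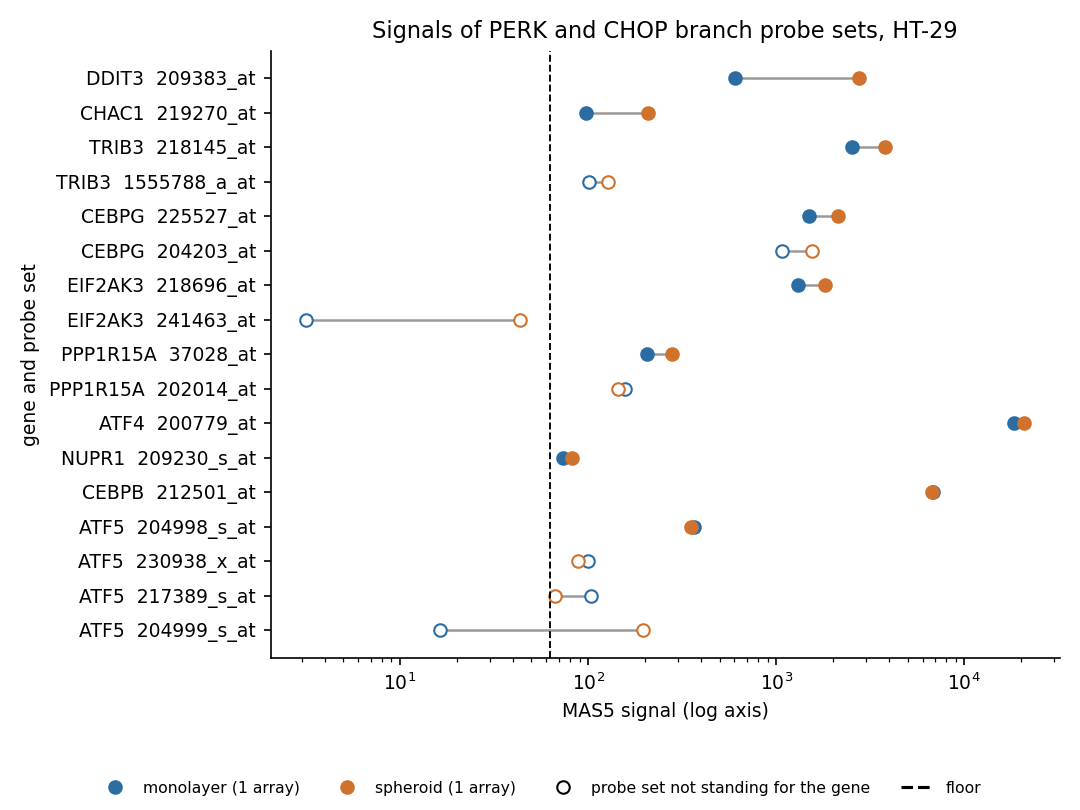
MAS5 signals (log axis) of the 17 probe sets of the 10 members on the HT-29 monolayer array (blue) and spheroid array (orange), 1 array per condition. Filled points are probe sets that stand for the gene, open points its other probe sets, and the dashed line is the floor at 62.7. DDIT3 shows the widest gap of the filled points, from 604 to 2769, and the points of CEBPB and ATF4 nearly coincide.

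The bases just before the starts of these genes are shown because ATF4 and its partners act through elements in such regions. RefSeq promoter sequences (GRCh38.p14) were found for 9 of the 10 members. The 250 bases before each start were searched on both strands for TGATGNAA, the core of the C/EBP-ATF response elements that ATF4 dimers bind, for the cyclic AMP response element TGACGTCA, for the endoplasmic reticulum stress element (CCAAT, 9 letters and CCACG), for the C/EBP palindrome TTGCGCAA and, added after the letters had been read, for the AP-1 site TGACTCA. Capitals mark the matches, and no match overlapped another. DDIT3 (chr12:57520518-57520767, minus strand) held an AP-1 site from -238 to -232, counted back from the upstream of its annotated starts, and no exact match to the other motifs. It also holds CCAAT, 9 letters and CCACT, which differs from the searched endoplasmic reticulum stress element in the last letter and was not counted. CHAC1 (chr15:40953221-40953470, plus strand) held the C/EBP-ATF core from -209 to -202, read on the minus strand. Shorter stretches are given for PPP1R15A (chr19:48872337-48872396, plus strand), with a cyclic AMP response element, and CEBPG (chr19:33374060-33374089, plus strand), with a C/EBP-ATF core.
DDIT3: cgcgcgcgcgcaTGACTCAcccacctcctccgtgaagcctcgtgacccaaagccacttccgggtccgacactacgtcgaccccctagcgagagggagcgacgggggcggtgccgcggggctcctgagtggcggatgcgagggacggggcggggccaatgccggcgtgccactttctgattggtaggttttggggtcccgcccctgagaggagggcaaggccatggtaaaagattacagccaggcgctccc
CHAC1: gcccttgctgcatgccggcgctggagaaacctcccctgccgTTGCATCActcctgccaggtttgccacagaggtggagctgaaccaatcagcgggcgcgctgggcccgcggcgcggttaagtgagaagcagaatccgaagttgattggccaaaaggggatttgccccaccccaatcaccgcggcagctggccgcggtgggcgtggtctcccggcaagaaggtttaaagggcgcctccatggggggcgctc
PPP1R15A: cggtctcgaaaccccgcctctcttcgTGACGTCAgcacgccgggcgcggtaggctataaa
CEBPG: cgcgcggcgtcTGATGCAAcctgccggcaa

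The C/EBP-ATF core was thus present for 2 of 9 members, CHAC1 and CEBPG, compared to 3.89% of 27305 genes with such a sequence. The cyclic AMP response element was present for 1 of 9, against 2.03% of all genes, and the AP-1 site for DDIT3 and ATF5, against 5.19%. Exact matches to the endoplasmic reticulum stress element and the C/EBP palindrome were found for 0 of 9, and for 0.0916% and 0.146% of all genes. These matches describe the letters in a short window. Elements farther away or with other letters were not searched, and binding was not measured.

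At the top of the branch, EIF2AK3 had signals of 1306 in monolayer and 1822 in spheroids, a 1.39-fold difference (log2 difference 0.48). Its second probe set, at 3.18 and 43.4, was below the floor on both arrays and gives no fold. ATF4 mRNA differed little between the arrays. Its signals were 18275 and 20735, or 1.13-fold higher in spheroids (log2 difference 0.18). The difference of DDIT3 was thus 4.04 times that of ATF4 as a fold, and 2.15 times that of CHAC1, the next member. Since DDIT3 chose the set, these ratios are a description and have no replicate check.

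TRIB3, PPP1R15A and NUPR1 were higher in spheroids by less than 2-fold, each by its brightest probe set. TRIB3, a pseudokinase that ATF4 and CHOP induce and that restrains them in turn, was 1.50-fold higher, with signals of 2523 and 3780, and its dimmer probe set was 1.26-fold higher. PPP1R15A encodes GADD34, the phosphatase subunit that reverses eIF2α phosphorylation. Its brighter probe set had signals of 204 in monolayer and 280.0 in spheroids, a 1.37-fold difference, while the other went from 157 to 145, a log2 difference of -0.12. The direction for PPP1R15A therefore differed between its probe sets. NUPR1, a small stress-induced chromatin protein, was dim on both arrays, at 73.1 and 82.0, near the floor and under the olfactory receptor limit.

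The bZIP partners split. CEBPG, which dimerises with ATF4, had the closest readings among the members with several probe sets above the floor. Its probe sets went from 1498 to 2135 and from 1078 to 1552, folds of 1.42 and 1.44. CEBPB, which dimerises with CHOP and ATF4, was level, with signals of 6855 and 6701 (log2 difference -0.03). ATF5, a relative of ATF4 that is also controlled by translation, was level by its brightest probe set, at 366 and 354 (log2 difference -0.05). Of its other probe sets, those at 99.4 and 88.9 and at 104 and 66.9 were lower in spheroids, at -0.16 and -0.63. The remaining one went from 16.4, under the floor, to 195, at least 3.12-fold higher. With that probe set ATF5 would count as past 2-fold, so its direction is not settled by these arrays.

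Over the 10 members, all above the floor on both arrays, 8 had a difference above 0 and 2 below 0, and 2 were at least 2-fold higher and 0 as far in the other direction. Among all 13183 measured genes 5.61% were past 2-fold, 2.53% with a higher signal in spheroids (334 genes) and 3.08% with a lower one (406 genes). As DDIT3 chose the set, nothing is read from its own count, and without it 1 of 9 members was at least 2-fold higher. The median log2 difference was 0.47 over the 10 members and 0.45 over the 9 without DDIT3, compared to -0.05 over all measured genes, of which 45.2% were above 0. When both arrays were brought to the same spike-in level, all 10 members were above 0, CEBPB and ATF5 included, at a median of 0.71 where the median over all genes moved to 0.18. That scaling put 700 genes past 2-fold on the higher side and 189 on the lower, so that 78.7% of genes past 2-fold were higher, against 45.1% as deposited and 34.0% with both arrays scaled to the same median. DDIT3 and CHAC1 were past 2-fold on each of these scales. Scaling by quantiles gave CEBPB a value just above 0.

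**Figure D2:**
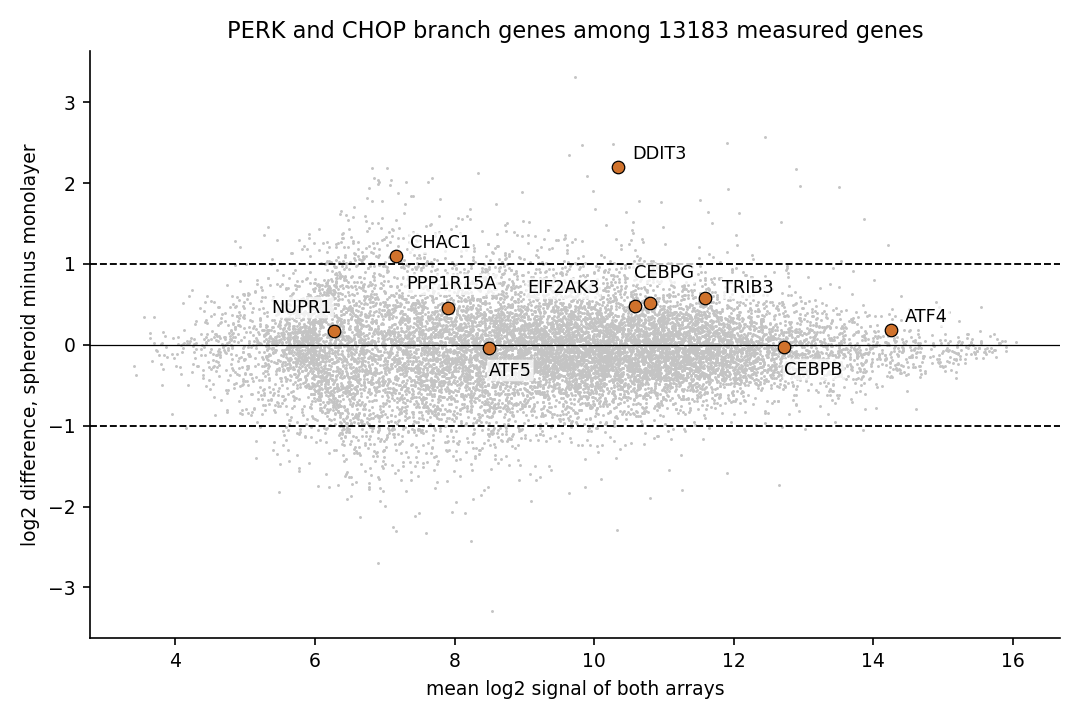
Log2 difference between the spheroid and the monolayer array against the mean log2 signal of both, for 13183 measured genes (grey) and the 10 members (orange). Dashed lines mark 2-fold differences, and the mean is taken before the floor is applied. DDIT3, at 2.20, lies near the upper edge of the genes of similar signal, CHAC1 lies just past the line at a low signal, and the other 8 members lie between -0.05 and 0.58.

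**Figure D3:**
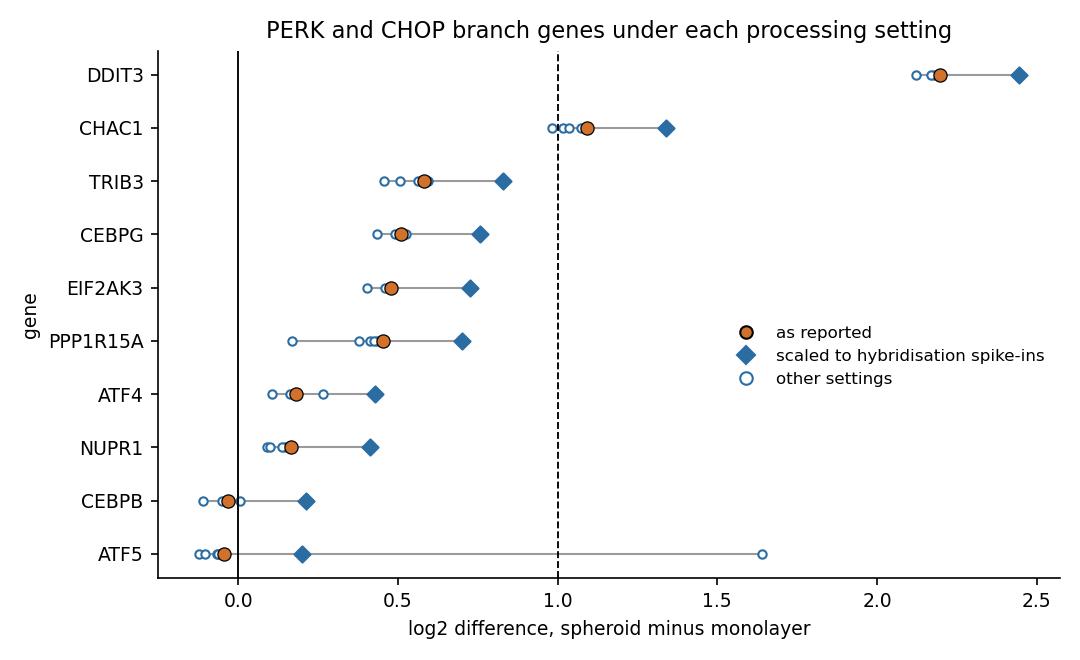
Log2 difference of each member as reported (orange), relative to the spike-ins (blue diamonds) and under the other settings that measured it (open circles). The dashed line marks 2-fold. DDIT3 ranged from 2.12 to 2.44 and CHAC1 from 0.98 to 1.34, and the far point of ATF5, at 1.64, is its probe set that was under the floor in monolayer.

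Genes with a difference most like that of DDIT3 were found as the 3 next above and the 3 next below it, over these 2 arrays only. Above it stood RUSC1-AS1 (2.48), ANGPTL4 (2.47) and IFIT2 (2.35), and below it GJA1, GLIPR1 and IDI1 (2.17). GJA1 and GLIPR1 were under the floor in monolayer, so that their values of 2.19 are lower bounds. The gaps of the remaining 4 to DDIT3 were from 0.02 to 0.29, all under the SD of 0.41 between probe sets, so the order of these genes is not resolved.

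ATF4 induces many genes besides the members, and 34 of 38 on a list of them were measured. Of these, 5 (14.7%) were past 2-fold with a higher signal in spheroids and 0 with a lower one, against 2.53% and 3.08% of all measured genes. The median over the 34 was -0.09, near that of all measured genes, -0.05. The 5 were GDF15, a secreted stress cytokine, with signals of 3873 and 11136 (2.88-fold), ATF3, a bZIP repressor (2.47-fold), STC2, a secreted glycoprotein (2.43-fold), DDIT4, an inhibitor of mTORC1 (2.35-fold), and SLC7A11, the cystine transporter (2.05-fold). A second probe set of STC2 was at a log2 difference of 1.71, one of SLC7A11 at 2.07 and one of ATF3, dimmer, at 0.35. Other probe sets of GDF15 were dim, at 49.5 and 98.1 and at 15.4 and 62.1, and only the former passed the floor, in spheroids alone. Divided by role, a division made after the values were known, 9 regulators and secreted factors had a median of 0.79, with 7 above 0. XPOT, a tRNA exporter at 0.15, was counted in this group though it has neither role. The count past 2-fold varied with the scaling, as SLC7A11 was at 0.96 with both arrays scaled to the same median, and 5 of the 9 regulators and secreted factors, in place of 4, were past 2-fold relative to the spike-ins. The 9 enzymes of amino acid synthesis and one-carbon metabolism were all below 0 as deposited, with a median of -0.32, but 4 of them were above 0 relative to the spike-ins. They included the cystathionine lyase CTH, the lowest at -0.73, the serine enzyme PSPH at -0.72 and the asparagine synthetase ASNS at -0.38, and none was 2-fold lower. Aminoacyl-tRNA synthetases, also 9, and 7 amino acid transporters had medians of -0.05 and -0.01. Relative to the spike-ins the median of the enzymes was -0.07, under that of all genes, 0.18.

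CHOP itself is linked to genes of oxidative protein folding and of cell death. Of 8 measured genes on a list linked to CHOP, not all of them with these roles, 5 were above 0 and 3 below. The 5 include BCL2, which CHOP is known to repress, by a lower bound. The median log2 difference was 0.20, and 0 were past 2-fold in either direction, against 5.61% of all measured genes. ERO1A, the endoplasmic reticulum oxidase that CHOP induces, had signals of 2776 and 3858 (1.39-fold), and its other probe sets were at log2 differences of 0.46 and 0.79. The brightest probe set of TNFRSF10B, a death receptor for TRAIL, was 1.19-fold higher, and the others above the floor were at 0.24 and -0.39. GADD45A, a growth arrest gene, was 1.10-fold higher, and HMOX1, the haem oxygenase, 1.39-fold higher. BCL2, a survival gene that CHOP is known to repress, was under the floor in monolayer and at 98.5 in spheroids, at least 1.57-fold higher, and its other probe sets were below the floor on both arrays. By their brightest probe sets the 3 genes below 0 were nearly level, with DDIT4L at -0.10, BCL2L11, a gene of cell death, at -0.06 and WFS1 at -0.04. A dimmer probe set of WFS1 was at -0.45. The dimmer ones of BCL2L11 that were above the floor on both arrays were at 0.03 to 0.53. Another of BCL2L11, above it only in monolayer, was at -0.56.

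The machinery around eIF2 had no common direction. Of 20 measured genes of eIF2α kinases, phosphatases, eIF2, its exchange factor eIF2B and related factors, 6 were above 0 and 14 below. Their median was -0.07, and 0 were past 2-fold, against 5.61% of all measured genes. DNAJC3, a chaperone also known as an inhibitor of PERK, was highest at 0.72 by its brightest probe set, while its others were at 0.17, -0.24 and -0.37. EIF2B2, a subunit of eIF2B, was lowest, from 3173 to 1808 (log2 difference -0.81), followed by EIF2A, which is not the gene of eIF2α, at -0.47. EIF2S1, the gene of eIF2α, was at -0.05 by its brightest probe set and at 0.43 and 0.90 by its others. PPP1CB, a catalytic phosphatase subunit, was at -0.44 by its brightest probe set, but its 3 others were at 0.30 to 0.47. The kinases EIF2AK2 and EIF2AK4, which sense double-stranded RNA and uncharged tRNA, were at 0.26 and -0.40 by their brightest probe sets. Dimmer probe sets of EIF2AK2 were at 0.02 and -0.42, and that of EIF2AK4 was at -0.18. The haem-regulated kinase EIF2AK1 was at -0.06, and its dimmer probe set at 1.03.

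The IRE1 and ATF6 branches of the same response had a median of 0.25 over 22 measured genes, with 16 above 0. DNAJB9, an endoplasmic reticulum chaperone and target of XBP1, was the only one at least 2-fold higher (4.5% of the list, against 2.53% of all measured genes). It had signals of 868 and 2974 (3.43-fold), and all 3 of its probe sets were at log2 differences from 1.67 to 1.84. HERPUD1, of protein degradation at the endoplasmic reticulum, was 1.89-fold higher, ATF6B 1.64-fold, though dim, and the co-chaperone DNAJB11 1.52-fold. The main chaperone HSPA5 was 1.32-fold higher and XBP1 1.34-fold, while the sensors ERN1, the gene of IRE1, and ATF6 were at -0.37 and -0.24.

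In the wider C/EBP and bZIP family, from which the dimer partners of CHOP and ATF4 come, 15 of 25 measured genes were above 0, with a median of 0.05. ATF3 was the only one at least 2-fold higher, and DBP, an output gene of the circadian clock, the only one at least 2-fold lower, from 521 to 204. Among all measured genes 2.53% were as far higher and 3.08% as far lower, so counts this small in 25 genes are near those shares. CEBPZ, which carries the C/EBP name but no bZIP domain, was 1.75-fold higher and NFIL3, a repressor, 1.62-fold. CEBPA and CEBPD, the close relatives of CEBPB, were at 0.41 and 0.46.

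**Figure D4:**
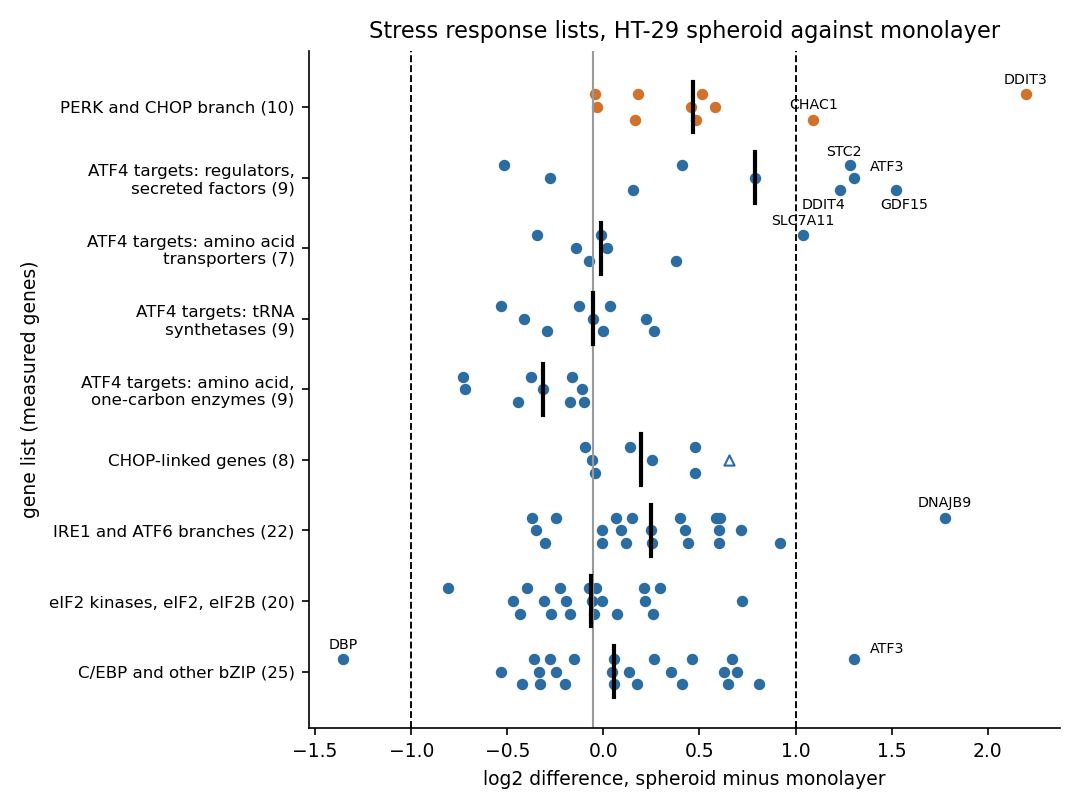
Log2 difference, spheroids minus monolayer of HT-29, for the 10 members (orange) and the measured genes of the other stress response lists (blue), with medians as black bars, the median of all measured genes as a grey line and 2-fold as dashed lines. The open triangle is a lower bound (BCL2), and ATF3, ATF6, CEBPA and JDP2 are each in 2 lists. DDIT3, DNAJB9 and the ATF4 targets GDF15, ATF3, STC2, DDIT4 and SLC7A11 lie past 2-fold with CHAC1 on the deposited scale, and the 9 amino acid and one-carbon enzymes lie left of 0, where 4 do not when scaled to the spike-ins.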

How the data were processed

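Gene expression was measured in HT-29 monolayer cells (1 array) and spheroids (1 array). Per the labels and the methods, RNA was isolated with the mirVana kit, labelled with the Affymetrix 3' IVT kit and hybridised to U133 Plus 2.0 arrays. The deposited values are MAS5 signals that the authors computed with Affymetrix Expression Console, linear intensities with a trimmed mean set to 500, without detection calls. The methods speak of duplicates. Only 1 array of each culture was analysed here, which limits the precision.

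Computation was in Python 3.11.15, numpy 2.4.6, pandas 2.3.3 and matplotlib 3.10.9, checked on simulated data. Probe sets were named by the platform annotation, 41097 with 1 gene and 1801 with several, which named no gene, and 41043 were matched to current RefSeq symbols. A suffix of x or s marks probe sets that other transcripts can share. Signals under the 50th percentile were set to it, log2 was taken and each gene was represented by its brightest probe set, by the mean of log2 signals. The 2-fold threshold is that of the methods, and no test was run. A gene under the floor on 1 array gives a bound, and under it on both no fold.

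The members, gene lists and alternatives were chosen with earlier results of these data known. Genes named are all members, up to 4 with the largest absolute difference per list and those nearest DDIT3. Others were named after their values were seen. Alternatives were 4 other scalings (median, quantile, GAPDH, spike-ins), 2 higher floors, no floor, a pseudocount of 15.9, 2 other ways to choose probe sets and a 3-fold threshold.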

Additional observations from a re-analysis of the deposited data

How the results depend on the processing

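With 1 array per condition the alternatives describe the computation and not the spread between cultures. DDIT3 was past 2-fold under every setting run, at log2 differences from 2.12 to 2.44, and past the 3-fold threshold. CHAC1 was at 0.98 with the pseudocount and not measured with the floor raised to the 75th percentile, 386, so that 1 member was at least 2-fold higher under each of these settings, as with the 3-fold threshold, and 2 or 3 elsewhere. Of 95 member values under the alternatives, 94 were within 0.41 of the reported value, and the exception was ATF5 at 1.64, read from its most different probe set. This count says little about robustness. Scaling to the median, GAPDH or the spike-ins shifts every member by the same amount, and a higher floor leaves members above it unchanged. Members not measured under a setting are not counted. The median over the members ranged from 0.32, with the median of probe sets, to 0.71.

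Genes at least 2-fold higher and lower numbered 700 and 189 relative to the spike-ins, 2476 and 2502 without a floor, 1319 and 1397 with the pseudocount, 100 and 74 with the floor raised to 386, 791 and 716 with the most different probe set of each gene, and 52 and 60 at 3-fold. NUPR1 was not measured with either higher floor, and PPP1R15A and ATF5 not with that of 386. No paired analysis was possible because each condition has 1 array.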
